A study of Mus musculus with 20 samples.

Results

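The alpha and mu glutathione transferases described here were the 10 genes Gsta1, Gsta2, Gsta3, Gsta4, Gstm1, Gstm2, Gstm3, Gstm4, Gstm6 and Gstm7, taken by gene symbol from the RNA-seq tables of male and female mouse liver and joined by Ensembl gene identifier. All 10 were among the 56884 genes of the male table, and 9 were among the 18149 genes of the female table, which did not list Gsta1. The male table also listed genes with a mean of 0, whereas the lowest mean in the female table was 6.61. A gene missing from the female table therefore has no known level there, and absent, low and filtered genes cannot be told apart. Livers came from C57BL/6J-derived mice of 11 to 14 weeks carrying the Midn-XTR allele, a gene-trap cassette in an intron of Midn that Cre recombinase inverts. The groups were WT, with the labelled genotype Midn XTR (cassette not inverted), and Midn-T, with the genotype Midn TR (cassette inverted by Albumin-Cre, which is active in hepatocytes). Whether the WT mice carried the Cre transgene was not stated in the sources used here. Each sex had 3 WT and 3 Midn-T mice, and each level below is the authors' mean normalized count over those 6 mice. It is a pooled value of both genotypes, with no spread over mice and no test. WT and Midn-T were not compared here, and a pooled mean can hide a difference between them.

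Glutathione transferases join the tripeptide glutathione to reactive, electrophilic compounds, which makes these compounds more soluble and ready for export. The alpha and mu classes are soluble proteins that work as dimers of subunits from the same class, and liver is one of their main sites. Several of their genes are known targets of the transcription factor NRF2, encoded by Nfe2l2, which binds antioxidant response elements, and of the xenobiotic receptors CAR and PXR. The genes of each class arose by duplication, so that members resemble each other closely in sequence, which matters for read counting.

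The mu members lay side by side on chromosome 3 of GRCm39. Gstm7 (107832278 to 107839187), Gstm6 (107844454 to 107851103), Gstm3 (107871012 to 107881730), Gstm2 (107889004 to 107893785), Gstm1 (107919380 to 107925380) and Gstm4 (107947721 to 107952210) were all on the minus strand. With Gstm5, a mu gene outside the 10, the cluster spanned 149074 bp. Each mu member had 8 exons and 654 coding bases in its canonical transcript. Of the alpha members, Gsta4 (78090056 to 78117763) and Gsta1 (78137927 to 78149966) were on the plus strand and Gsta2 (78238292 to 78263077) on the minus strand of chromosome 9. Gsta13 and Gsta5, further alpha genes, lay between Gsta1 and Gsta2 in a cluster of 173022 bp. Gsta3 stood alone on chromosome 1 (21310806 to 21335885, plus strand). Each alpha member had 7 exons.

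The coding sequences of Gsta1 and Gsta2 were 97.6% identical, differing in 16 of 669 aligned columns, and Gsta1 and Gsta13 differed in 2 columns. The closest copy of Gsta2 was Gsta5, at 98.5%. Over the alpha copies Gsta1, Gsta13, Gsta5 and Gsta2, coding bases 26 to 175, from exon 2 to exon 4, held no difference at all. This stretch is shown because a read inside it has no base that tells the copies apart; in Gsta1 it lies at chr9:78139547-78143247 on the plus strand of GRCm39, introns included.
all alpha copies: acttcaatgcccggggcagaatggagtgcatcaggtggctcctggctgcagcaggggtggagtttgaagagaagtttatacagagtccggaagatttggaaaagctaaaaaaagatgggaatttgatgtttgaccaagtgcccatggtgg

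The stretch of 150 coding bases with the most differences among these copies, bases 448 to 597 in exons 6 and 7, held 8 columns that differed. It is shown because these columns, in capitals, are where the copies are not all alike. Gsta1 and Gsta13 have the same base at most of them, and a read that crosses only those still fits both. The stretch lies at chr9:78148842-78149785 (Gsta1), chr9:78175325-78176268 (Gsta13) and chr9:78211687-78212627 (Gsta5) on the plus strand, and at chr9:78238481-78239467 (Gsta2) on the minus strand.
Gsta1: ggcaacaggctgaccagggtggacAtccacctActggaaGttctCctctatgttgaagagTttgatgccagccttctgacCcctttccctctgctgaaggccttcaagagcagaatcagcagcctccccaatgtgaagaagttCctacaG
Gsta13: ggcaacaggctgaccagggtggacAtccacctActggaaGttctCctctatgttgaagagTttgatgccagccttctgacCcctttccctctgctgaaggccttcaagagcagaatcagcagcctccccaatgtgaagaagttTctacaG
Gsta5: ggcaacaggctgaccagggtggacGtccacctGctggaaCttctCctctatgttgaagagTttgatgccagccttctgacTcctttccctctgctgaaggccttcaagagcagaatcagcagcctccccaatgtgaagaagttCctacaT
Gsta2: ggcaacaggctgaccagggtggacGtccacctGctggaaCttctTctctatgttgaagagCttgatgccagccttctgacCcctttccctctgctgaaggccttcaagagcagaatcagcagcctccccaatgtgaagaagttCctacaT

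The mu members stood further apart than the alpha copies shown above, but by median identity they were closer together than the 6 alpha pairs (70.3%). Their 15 pairs were 79.1 to 89.5% identical (median 82.6%), with Gstm1 and Gstm3 the closest pair. In the 150 coding bases where Gstm1, Gstm3 and Gstm2 differed most (bases 242 to 391, exons 4 to 6), 38 columns differed, again in capitals. These bases are shown to set the mu spacing of differences beside that of the alpha copies. They lie on the minus strand at chr3:107922326-107923852 (Gstm1), chr3:107873660-107875099 (Gstm3) and chr3:107891510-107892580 (Gstm2).
Gstm1: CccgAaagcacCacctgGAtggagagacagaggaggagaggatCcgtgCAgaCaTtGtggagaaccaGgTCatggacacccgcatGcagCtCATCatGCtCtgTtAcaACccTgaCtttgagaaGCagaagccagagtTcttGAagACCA
Gstm3: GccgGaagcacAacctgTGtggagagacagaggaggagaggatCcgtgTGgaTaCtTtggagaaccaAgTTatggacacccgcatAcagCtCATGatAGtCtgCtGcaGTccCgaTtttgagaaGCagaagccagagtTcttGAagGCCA
Gstm2: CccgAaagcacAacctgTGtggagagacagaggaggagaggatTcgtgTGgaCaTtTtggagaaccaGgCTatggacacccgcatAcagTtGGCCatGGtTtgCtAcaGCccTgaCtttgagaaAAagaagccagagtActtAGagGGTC

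The 6 alpha pairs ranged from 65.9 to 97.6% (median 70.3%), and Gsta4 was the most distant alpha member, with at most 66.6% identity to any other alpha gene examined. Alpha and mu members shared 48.2 to 51.6% of aligned columns over 24 pairs. The classes therefore formed separate blocks in the map of pairwise identity.

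**Figure D1:**
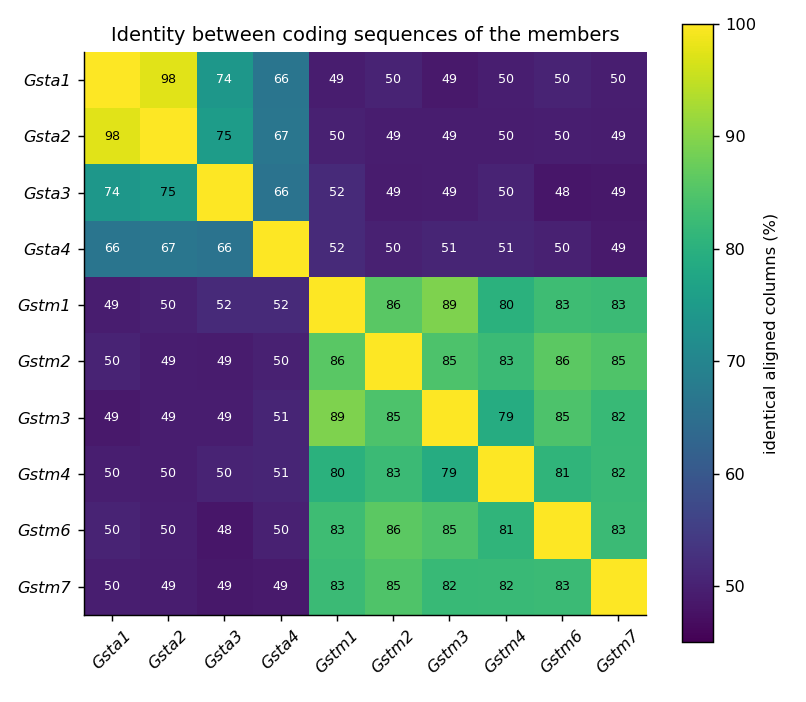
Percent of identical aligned columns between the canonical coding sequences of each pair of the 10 members (colour and number; both axes list the genes). The alpha and mu blocks stand out from the 48.2 to 51.6% between classes, and Gsta1 with Gsta2, at 97.6%, is the closest pair.

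The authors counted only uniquely mapped reads of 150 bases, so the share of each transcript that is repeated elsewhere was measured. For Gsta1, 72.7% of the 737 windows of 150 bases in the canonical transcript were found without mismatch in another gene's transcript or elsewhere in the genome. Of these windows, 454 were in Gsta13, 104 in Gsta2 and 22 in Gsta5. For Gsta2 the share was 25.4% of 761 windows, mostly in Gsta5 (111 windows) and Gsta1 (104 windows). The levels of Gsta1 and Gsta2 are therefore uncertain, since a read that fits more than 1 copy equally well is not counted.

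Gstm2 had 7.07% repeated windows, all 66 of them in the processed pseudogene Gm6665, and Gstm3 had 3.44%, all 40 in the processed pseudogene Gm8834. The pooled means of Gm6665 were 5.98 in males and 6.97 in females, and those of Gm8834 were 9.23 and 8.47. The remaining 6 members had no repeated window of 150 bases. With windows of 100 bases the shares were 80.8% for Gsta1, 33.3% for Gsta2, 22.5% for Gstm2, 13.8% for Gstm3, 7.18% for Gstm1 and 1.57% for Gstm6, and they stayed at 0 for Gsta3, Gsta4, Gstm4 and Gstm7. A mate outside the repeat can still place a read pair, so these shares are not shares of lost reads.

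**Figure D2:**
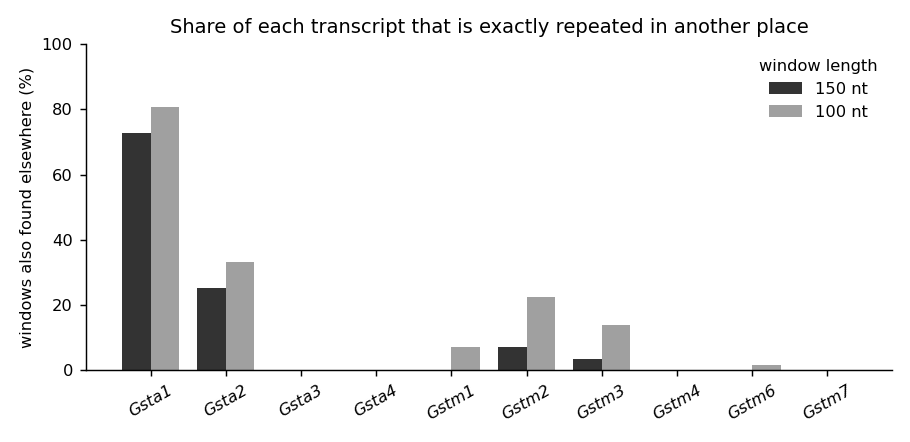
Percent of windows of 150 or 100 bases of each member's canonical transcript (x axis) that occur without mismatch in another gene's transcript or elsewhere in the genome. Gsta1 (72.7% at 150 bases) and Gsta2 (25.4%) stand above the other members, of which 6 are at 0 at this length.

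Gsta3 and Gstm1 were by far the most abundant members in both sexes. Gsta3, an alpha form known in mice for its high activity toward the epoxide of aflatoxin, had a pooled mean normalized count of 38997 in males and 32680 in females. Gstm1, the main mu form of mouse liver, had means of 32670 and 26209. Together they held 88.8% of the summed means, not corrected for length, of the 9 members listed in both tables in males and 86.6% in females. On these counts alpha held 51.2% of the members' sum in males and 51.0% in females. Per union exon length alpha held 32.9% and 32.8% of the members' summed level, and per longest coding transcript 49.7% and 49.6%, so the balance of the classes depends on the length used.

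Over all genes listed in both tables with a mean above 0, the 9 members held 0.267% of the summed mean normalized counts in males and 0.221% in females. Levels of different genes were compared per base of union exon length, as parts per 1000000 (ppm) of the same quantity over all genes listed in both tables. On this scale Gstm1 was at 1682 ppm in males and 1322 ppm in females. This was rank 67 and rank 75 of the 13614 protein-coding genes listed in both tables. Gsta3 was at 881 ppm and 723 ppm, rank 118 and rank 132. Gstm1 was thus 1.91 times above Gsta3 in males and 1.83 times in females by union exon length, and Gsta3 was the higher of the pair, by 1.1 and 1.15 times, by the length of the longest protein-coding transcript. The union exon length of Gsta3 is 5729 bases and its longest coding transcript has 1677, so the order of this pair depends on the length used. By the longest coding transcript Gsta3 was at 2415 ppm in males and 2040 ppm in females. By the canonical transcript, a length chosen after seeing the data, it was at 2129 and 1754 ppm, above Gstm1 at 1892 and 1492 ppm. The ranks among protein-coding genes were not computed with these lengths.

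The next member lay far below. Per union exon length Gsta3 was 7.32 times above Gstm3 (120 ppm) in males and 6.66 times above Gstm2 (109 ppm) in females. By the longest coding transcript the gap was wider. There Gsta3 was at 2415 ppm and Gstm3 at 119.4 ppm in males, and Gsta3 at 2040 ppm and Gstm2 at 145.2 ppm in females. Per union exon length, Gsta4, which conjugates hydroxynonenal, an aldehyde formed by lipid peroxidation, was at 70.9 ppm in males and 62.3 ppm in females. Gstm4 was at 68.0 and 68.1 ppm, and Gstm6 at 63.95 and 64.2 ppm. In the male table neighbouring members from Gstm2 (79.9 ppm) to Gstm6 were within 1.13 times of each other. With 1 pooled value a sex, their order cannot be set against a spread between mice.

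At the low end, Gsta2 was at 48.6 ppm in males and 38.2 ppm in females, and Gstm7 at 29.6 and 34.4 ppm. By the length of the canonical transcript, chosen after seeing the data, Gsta2 was at 70.6 and 55.7 ppm and Gstm7 at 53.4 and 62.5 ppm, which put both above Gstm4 (53.0 and 53.2 ppm) and Gstm6 (50.9 and 51.3 ppm), so their place in the order depends on the length used. By union exon length Gstm7 was above 77.9% of the protein-coding genes listed in both tables in males and 81.5% in females. Gsta1 was the exception, with a pooled mean of 40.9 and 4.16 ppm in males, above 33.3% of the same protein-coding genes. Gsta1 and Gsta2 encode the inducible alpha subunits of mouse liver, and Gsta2, with a pooled mean of 804 in males, was 11.7 times above Gsta1 per union exon length and 17.1 times per longest coding transcript. As shown above, most of the Gsta1 transcript is repeated in its neighbours. The part of this in its low count was not tested.

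**Figure D3:**
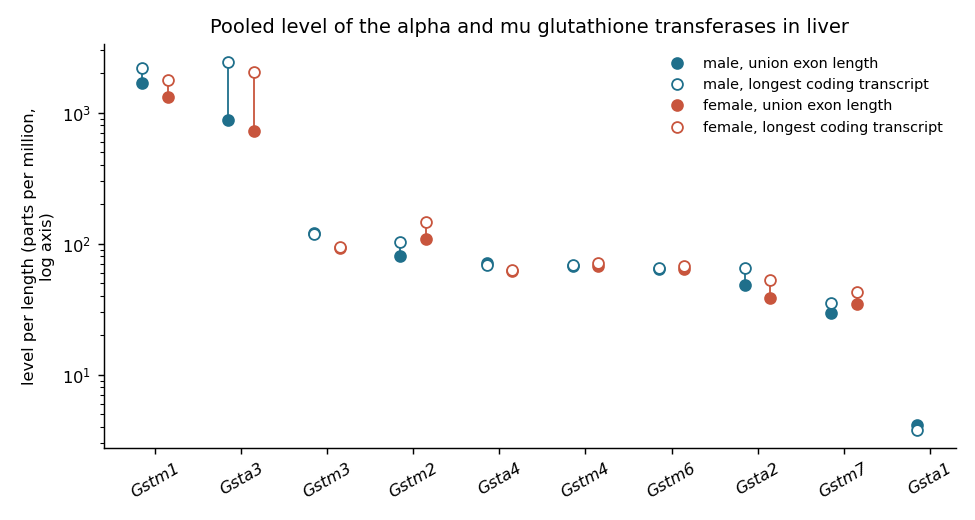
Pooled level per length of each member in males (blue) and females (red), on a log axis in ppm, by union exon length (filled) and by the longest protein-coding transcript (open), with a line joining the pair. Gstm1 and Gsta3 lie at 723 ppm or above in both sexes, the other members at 145.2 ppm or below, and Gsta1 has a male value only.

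Gstm5, a mu gene best known from brain and testis, had pooled means of 139.5 in males and 208.6 in females and levels per length of 14.1 and 20.65 ppm, below every member but Gsta1. Gsta13 had a mean of 24.6 and Gsta5 of 0.73 in males, and the female table listed neither. The pseudogene Gstm2-ps1, which lies in the mu family, had means of 38.2 and 32.3. Among 25 glutathione transferase genes of all classes listed in both tables, Gstm1 had rank 3 in males and rank 2 in females per union exon length. It was behind the microsomal Mgst1 in both and behind the pi class gene Gstp1 in males. Gsta3 had rank 4 and rank 3. These ranks were not computed with other lengths, which change the order of Gsta3 and Gstm1.

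The 2 tables were normalized separately by the authors, so each was scaled to the same sum over the genes listed in both before the sexes were set side by side. Sex and anything else that differed between the 2 sets of libraries cannot be told apart. None of the 9 members listed in both tables differed by more than 1.5-fold, where 12.0% of 16283 genes with a mean of at least 10 in both tables did, 8.01% with the female and 3.94% with the male value higher. The members' median log2 ratio of female over male was -0.18, and that of the 16283 genes was 0.03. The members ranged from -0.36 to 0.45, and the middle of all genes, from the lower to the upper quartile, ran from -0.15 to 0.25.

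Of the 9 members, 5 (55.6%) had the higher value in males, as did 46.3% of the 16283 genes, and these 5 included all 3 alpha members listed in both tables. Scaled to counts per 1000000, Gsta3 was at 1289 in males and 1062 in females, a log2 ratio of -0.28. Gsta2 was at 26.6 and 21.0, a log2 ratio of -0.34. Gsta4 was at 49.7 and 43.8, a log2 ratio of -0.18.

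The mu members were split. Gstm1, at 1080 in males and 852 in females, had a log2 ratio of -0.34, and Gstm3, at 53.4 and 41.5, one of -0.36. These are the closest mu pair by sequence, with no repeated window of 150 bases between them. Gstm2 went furthest the other way, at 38.97 in males and 53.2 in females, a log2 ratio of 0.45 or 1.37-fold, and Gstm7 was at 31.6 and 37.0, a log2 ratio of 0.23.

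Gstm4 (37.5 in males and 37.6 in females) and Gstm6 (61.0 and 61.5) were nearly level, with log2 ratios of 0.01 each, which turned to -0.02 and -0.01 when the median ratio of all genes was set to 1. The order of Gstm3 and Gstm2 depended on the sex, since per union exon length Gstm3 was at 1.51 times the level of Gstm2 in males and 0.86 times in females. This ratio is taken within each table and needs no scaling between them. Per longest coding transcript it was 1.15 and 0.65. Gstm1 was 21.1 times above Gstm2 in males and 12.2 times in females per union exon length.

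**Figure D4:**
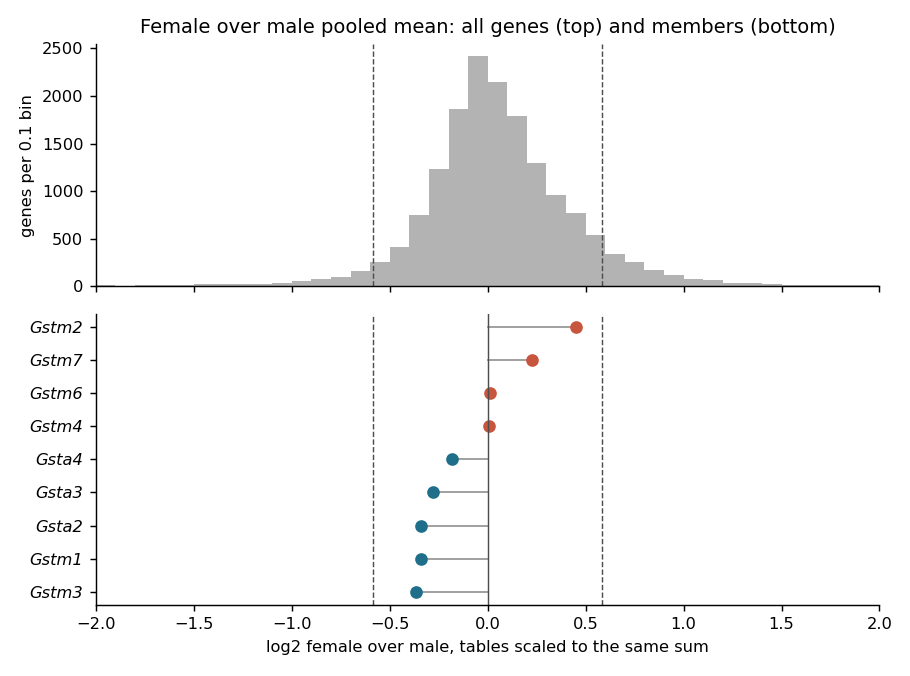
Top, number of genes per bin of 0.1 in the log2 ratio of female over male pooled mean, for 16283 genes, shown from -2 to 2. Bottom, the same ratio for the 9 members listed in both tables, with dashed lines at 1.5-fold, which no member passes; Gstm2 is highest at 0.45, Gstm3 lowest at -0.36, and Gstm4 and Gstm6 lie next to 0, on the other side of it when the median ratio is set to 1.

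The log2 ratios of the other glutathione transferases ran from -3.70 to 1.49 over the 13 with a mean of at least 10 in both tables, beside -0.36 to 0.45 for the members, a difference that was not tested. Of these 13, 3 were more than 1.5-fold higher in females and 2 in males, beside 8.01% and 3.94% of the 16283 genes. The median log2 ratio of the 13 was 0.27. Gstp1, the pi class form, had a pooled mean of 26931 in males and 2101 in females, 13.0-fold apart after scaling, and Gstp2 was 9.91-fold higher in males. Per union exon length Gstp1 was at 2135 ppm in males, above Gstm1, and at 163 ppm in females, below it. The genes higher in females were the theta class gene Gstt3 (776 and 2221), Gstp3 (293 and 489) and Mgst3 (163 and 273), given as male and female means. Gsto2, with means of 2.30 and 8.02, and Mgst2, with 9.26 and 11.8, were under this minimum. Mgst1, with the highest means of the list, 57300 and 46361, had a log2 ratio of -0.33.

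Genes of glutathione synthesis, use and breakdown and of related redox reactions were within 1.5-fold in 12 of 13 cases. By comparison, 12.0% of the 16283 genes were past this fold. The list's median log2 ratio was -0.24. Gpx1, the abundant glutathione peroxidase, had the highest means, 28514 in males and 28082 in females. Gclc, the catalytic subunit of the enzyme that sets the rate of glutathione synthesis, had means of 9811 and 6799 and a log2 ratio of -0.55, and its partner Gclm had means of 7192 and 6133 and a log2 ratio of -0.25. Ggct, which breaks down gamma-glutamyl peptides, was the gene past the fold, 1.77-fold higher in females. The female table did not list Ggt1 or Slc7a11, whose male means were 2.26 and 5.08.

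Of the 12 genes that export or further process the conjugates, 11 were within 1.5-fold, where 12.0% of the 16283 genes were past it. The list's median log2 ratio was -0.08. Abcc2, the pump that moves conjugates into bile, had the highest means, 47502 and 38398. Nat8, the acetyltransferase of the last step of mercapturate formation, was the gene past the fold, with means of 450 in males and 20.2 in females.

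Of 14 regulators known to act on detoxification genes, 13 were within 1.5-fold, where 12.0% of the 16283 genes were past it. The list's median log2 ratio was -0.05. Hnf4a, a hepatocyte nuclear receptor, had the highest means, 23196 and 19883. Nr1i3, which encodes CAR, was 1.56-fold higher in females (9453 and 15023). Nfe2l2 had means of 2394 and 2581, and Keap1, its inhibitor, 1386 and 1338.

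**Figure D5:**
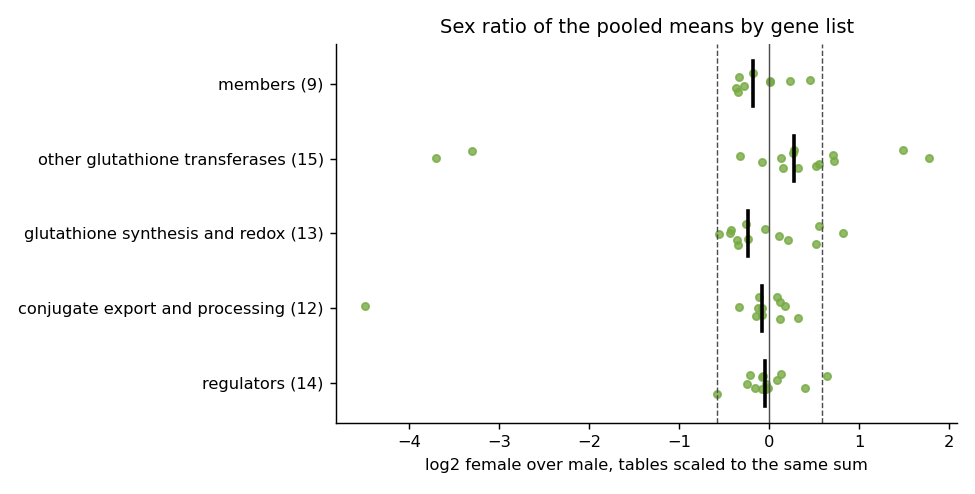
Log2 ratio of female over male pooled mean for each gene (points) of the members and 4 related lists, with the number of genes listed in both tables in brackets, the median as a bar and dashed lines at 1.5-fold. The members stay within the dashed lines, while the other glutathione transferases reach from -3.70 (Gstp1) to 1.49 (Gstt3), and to 1.78 for Gsto2, whose means of 2.30 and 8.02 are under the minimum of 10.

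Promoters, taken as 250 bases before to 50 after the start of the canonical transcript, were searched on both strands. The antioxidant response element was searched as TGACNNNGC, the AP-1 site as TGANTCA, which can overlap the former. Of the 10 members, Gsta3 held an antioxidant element match, as 12.5% of 21770 protein-coding promoters of this length did, and Gsta4 held an AP-1 match, as 7.14% did. In the wider window from 1000 bases before the start, Gsta1 and Gsta3 held the antioxidant element (30.4% of promoters), and Gsta1, Gsta2, Gsta4, Gstm4 and Gstm6 the AP-1 site (24.9%). Gsta3 held matches beginning 945, 546 and 118 bases before the start, and Gsta1 matches beginning 697 and 682 bases before it.

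In the short window TATAAA was found in Gsta2 and Gstm7 (13.2% of promoters). The match in Gsta2 began 201 bases before the start and lay on the opposite strand, and that in Gstm7 began 177 bases before it. The HNF1 motif, the PPAR response element and the E-box CACGTG were found in none of the 10, and in 0.0046%, 0.046% and 7.81% of promoters. The promoters of Gsta1 and Gsta2 were 63.2% identical, well below their coding sequences. They were still the closest promoter pair within a class, and the other pairs ran from 42.59% (Gstm4 with Gstm7) to 50.15% (Gsta1 with Gsta3). A match to these letters is a description of the sequence and not a bound site. The promoters of Gsta3, the most abundant alpha member, at chr1:21310556-21310855 on the plus strand, and of Gsta4, at chr9:78098979-78099278 on the plus strand, are shown with their matches in capitals.
Gsta3 promoter: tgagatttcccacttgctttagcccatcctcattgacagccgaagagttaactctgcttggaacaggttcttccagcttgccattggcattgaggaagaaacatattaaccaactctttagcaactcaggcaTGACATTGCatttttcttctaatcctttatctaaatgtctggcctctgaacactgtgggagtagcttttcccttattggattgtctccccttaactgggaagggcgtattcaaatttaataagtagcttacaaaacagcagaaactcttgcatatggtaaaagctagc
Gsta4 promoter: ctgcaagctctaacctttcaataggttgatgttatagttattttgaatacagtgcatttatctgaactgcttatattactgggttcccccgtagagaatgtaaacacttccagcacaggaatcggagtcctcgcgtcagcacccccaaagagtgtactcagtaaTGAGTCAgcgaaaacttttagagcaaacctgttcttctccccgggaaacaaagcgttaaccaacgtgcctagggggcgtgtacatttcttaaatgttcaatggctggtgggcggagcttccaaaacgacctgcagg

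The tables went with their labels. Xist had a pooled mean of 14.0 in males and 72478 in females, and the Y-linked Ddx3y, Uty, Kdm5d and Eif2s3y were listed in the male table only. All 11 male-biased liver genes listed in both tables were past 1.5-fold in males and all 12 female-biased ones in females. Of the female-biased genes, only 4 had a mean of at least 10 in both tables, and the others were below this minimum in males. All 11 male-biased genes reached it. Both lists were chosen with earlier results of these data known, so they are not an independent check of the labels. The 8 hepatocyte markers had means from 23196 to 1726242 in males and from 19883 to 2332943 in females. Of these, Tat was 1.61-fold higher in males and 7 were within 1.5-fold. Summed means of the markers of other cells were 7139 and 7432 for Kupffer cells, 9654 and 11017 for endothelium, 8746 and 11446 for stellate cells, 326 and 337 for cholangiocytes and 1139 and 1202 for lymphocytes, in males and females. The cholangiocyte sums were carried by Sox9 (245 and 209.5), while Krt19 was 1.90-fold, Krt7 1.53-fold and Epcam 1.41-fold higher in females, so that 2 of the 4 markers were past 1.5-fold. Of the 5 Kupffer cell markers, Marco was 1.55-fold higher in males and 4 were within 1.5-fold, in both directions. The 4 stellate markers were all higher in females, within 1.5-fold, with log2 ratios from 0.32 to 0.48. The endothelial and lymphocyte markers were all within 1.5-fold. The part of these other cells in the members' ratios was not tested, and in whole liver fewer cells of a type cannot be told apart from less RNA per cell.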

How the data were processed

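Liver RNA was sequenced as rRNA-depleted, stranded, paired-end libraries of 12 mice, 3 WT and 3 Midn-T of each sex. Alignment to GRCm39 with STAR (version 2.7 in the submitters' processing notes), counting of uniquely mapped reads per Ensembl gene by HTSeq with reversed strand, and a DESeq2 run for either sex were the authors' steps. The authors deposited for each gene 1 signal value a sex, the mean of its size-factor-normalized counts over 6 samples. The other columns of these tables hold the authors' fold change of Midn-T against WT, its error, statistic and p-values, and they were not used, nor were the lists of ATAC-seq peaks (8 samples), which give positions and directions chosen by the authors' comparison. With pooled means alone no test, SD or depth per library can be given.

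Means were scaled per table to a sum of 1000000 over the 18132 genes listed in both tables with a mean above 0, which hold 30251267 of the male sum of 30278021. Lengths and positions came from GENCODE M39 on GRCm39, which holds 18028 of these genes. The authors counted reads with another annotation, an Ensembl release, so the exons counted may differ from those whose length was taken. A ratio counted as past 1.5-fold, read against genes with a mean of at least 10 in both tables. A protein table was not used here, so identity was computed from coding bases by global alignment, and windows and motifs by exact search. Scripts ran in Python 3.11.15 with numpy 2.4.6, pandas 2.3.3, biopython 1.88, numba 0.67.0 and matplotlib 3.10.9. The window search was tested on planted copies, and the fold calls on planted changes with the median ratio set to 1. The main scaling to the same sum was not tested in this way. Members and gene lists were chosen with earlier results of these data known, and the motifs and printed stretches after the tables were seen. The genes named are the members, the other alpha and mu genes of the tables, pseudogenes that share their sequence, and the genes of each related list with the highest mean or past 1.5-fold. Gclc, Gclm, Nfe2l2, Keap1, Ggt1 and Slc7a11 were added after their values were seen, and Mgst2 was named for a mean under 10. Of the checks, the sex chromosome genes and the cell markers past 1.5-fold were named, with Epcam and Sox9 added. The sex-biased liver genes were given as counts only. Alternatives were other scalings, lengths, folds and gene filters.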

Additional observations from a re-analysis of the deposited data

How the results depend on the processing

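No paired analysis was possible because the tables give 1 pooled mean a sex and no test was made. No member passed 1.5-fold under any of the other scalings, and the members' median log2 ratio stayed between -0.21 and -0.13 under the scalings. The stricter 2-fold cut could not add a member, since none passed 1.5-fold. With the median ratio set to 1, 2 members instead of 4 had the higher value in females. Without the 10 largest genes of either sex in the sum, the members' share was 0.317% in males and 0.273% in females. Of 9 members, 7 kept their rank in each sex with the longest coding transcript. With the canonical transcript, a length chosen after seeing the data, 2 kept it in each sex, and with no length 1 did in males and 0 in females. Past 2-fold, 2.15% of all genes were higher in females and 1.43% in males. Of the other 94 values recomputed, for single genes and for the shares of all genes, 51 moved by more than 1.1-fold and 43 did not.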
